A study of Mus musculus with 9 samples.

Results

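Ketone bodies are made, interconverted, burned and carried across membranes by a small set of enzymes and transporters, and 7 of their genes are described here in proximal tubular epithelia of diabetic mice: Bdh1, Bdh2, Acat1, Oxct1, Slc16a1, Slc5a8 and Slc5a12. They were taken by symbol, as enzymes of ketone body metabolism and monocarboxylate transporters, and the rule sets no threshold on a measured value. All 7 were found among the 24421 genes of the deposited table, and all 7 passed the filter on low values, which left 15583 genes for testing. In brief, Bdh1 was more than 4 times lower in db/db than in db/m mice, with or without dapagliflozin. Acat1 and Oxct1 were lower in every db/db mouse than in every db/m mouse, with group means 1.502-fold and 1.71-fold apart. Neither passed both thresholds of the test, and 8.13% of all genes separated these groups in that direction. Slc16a1 was higher in every dapagliflozin-treated mouse than in every other mouse without passing the test. Beside it, 4.9% and 14.4% of all genes were higher without overlap in treated mice against untreated db/db and db/m mice.

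Cells positive for tdTomato were sorted by FACS from 9 mice and their poly(A) RNA was sequenced, with 1 mouse per library and 3 mice in each of 3 groups. The db/m mice are heterozygous for the Lepr db mutation of the leptin receptor and were the non-diabetic controls. The db/db mice carry it on both chromosomes and model type 2 diabetes. They received vehicle or, in the group named db/db-dapa and called treated below, 1.5 mg/kg/day of dapagliflozin, an inhibitor of the glucose transporter SGLT2, in drinking water for 8 weeks. Every mouse, controls included, was labelled C57BL/6 and carried SLC34a1GCE and R26tdTomato, and tamoxifen was given at 8 weeks of age. SLC34a1GCE places CreERT2 in the locus of Slc34a1, a phosphate transporter of the proximal tubule, so that only cells with that gene active at the time of tamoxifen, and their progeny, could be labelled. Kidney is the tissue named in the labels, and the sort is known from the study's methods. Whether litters or days were shared between mice is not given in the sources used here.

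The ketone bodies acetoacetate and 3-hydroxybutyrate are made mainly in liver mitochondria from the acetyl-CoA of fatty acids and are fuel for other organs during fasting, uncontrolled diabetes and SGLT2 inhibition. The kidney burns them, and proximal tubules also recover them from the glomerular filtrate, since they would otherwise be lost in urine. Oxct1 passes coenzyme A from succinyl-CoA to acetoacetate, the committed step of ketone body use, Acat1 splits the product into acetyl-CoA, and Bdh1 interconverts the ketone bodies inside mitochondria. Bdh2 is a cytosolic dehydrogenase of the same substrate that has also been linked to iron handling. Slc5a8 and Slc5a12 are sodium-coupled carriers of lactate, ketone bodies and other monocarboxylates in the apical membrane, of high and of low affinity, and Slc16a1 (MCT1) moves the same acids together with protons.

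The counts summed to between 2733349 in db/db replicate 1 and 9033123 in db/db-dapa replicate 3, and 3 counts corresponded to 1.02 and 0.339 CPM (counts scaled to a common library size by TMM) in these mice. The 10 proximal tubule markers, Slc34a1 among them, were detected in every group and summed to between 11272 and 12159 CPM in db/m mice and to between 12564 and 20313 CPM in diabetic mice, so that this sum too separated db/m from all diabetic mice. Markers of other cells were lower, at most 1675 CPM in a mouse for loop of Henle, 891 for distal convoluted tubule, 599 for collecting duct, 249 for podocytes, 168 for endothelium, 11.4 for fibroblasts, 471 for macrophages and 1462 for erythroid cells, with 0 of their genes at 0 in all mice. Loop of Henle markers summed to 949, 785 and 1675 CPM in db/m mice and to 493, 404 and 512 CPM in db/db-dapa mice, without overlap. In db/db mice they summed to 1099, 371 and 489 CPM, and 0 of these markers were called in any comparison. Erythroid markers were highest in db/db replicate 2 (120 and 98.1 CPM in the other db/db mice) and podocyte markers in db/db-dapa replicate 1 (28.8 and 17.6 CPM in the other treated mice). Immediate-early and heat-shock genes summed to between 3885 and 8816 CPM, and 1 of the 9, the chaperone Dnajb1, was called, lower in db/db than in db/m mice (log2 fold change -1.20, adjusted p = 0.0657, edgeR). The part of handling in the calls below was not tested. The 6 markers of the S3 segment, the last stretch of the proximal tubule, differed between groups, and 2 of them were lower in db/db than in db/m mice by the test. They summed to 1898, 2052 and 1644 CPM in db/m mice, to 202, 223 and 912 CPM in db/db mice and to 779, 710 and 1133 CPM in db/db-dapa mice. Thus db/db replicate 3 stood apart from the other db/db mice on S3 markers, and db/db replicate 1 was the smallest library.

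Promoter sequences are shown for the genes whose groups did not overlap in a comparison described below and for which RefSeq gave a window. RefSeq's windows for GRCm38.p6 matched 5 of the 7 genes: Bdh1 (2 windows), Bdh2, Oxct1, Slc16a1 and Slc5a8. Each stretch begins 250 bases before the RefSeq start and is printed 5′ to 3′. It ends before that start, or before the annotated exon where the exon comes first. Capitals mark matches, on either strand, to 6 short motifs. The element AGGTCA is recognised by nuclear receptors such as PPAR-alpha, and GGGTCA is a common variant of it. The E-box CACGTG, the GC box GGGCGG and the promoter boxes CCAAT and TATAAA were searched as well.
Bdh1, chr16:31422047-31422279, plus strand: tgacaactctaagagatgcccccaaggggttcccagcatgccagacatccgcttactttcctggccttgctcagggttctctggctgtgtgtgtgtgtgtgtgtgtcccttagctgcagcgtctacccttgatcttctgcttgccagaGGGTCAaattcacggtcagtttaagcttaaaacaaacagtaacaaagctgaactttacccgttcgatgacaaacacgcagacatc
Oxct1, chr15:4026178-4026382, plus strand: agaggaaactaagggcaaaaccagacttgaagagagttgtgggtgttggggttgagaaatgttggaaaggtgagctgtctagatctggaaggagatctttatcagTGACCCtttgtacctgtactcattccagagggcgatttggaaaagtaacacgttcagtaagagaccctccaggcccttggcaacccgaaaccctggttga
Slc16a1, chr3:104638414-104638663, plus strand: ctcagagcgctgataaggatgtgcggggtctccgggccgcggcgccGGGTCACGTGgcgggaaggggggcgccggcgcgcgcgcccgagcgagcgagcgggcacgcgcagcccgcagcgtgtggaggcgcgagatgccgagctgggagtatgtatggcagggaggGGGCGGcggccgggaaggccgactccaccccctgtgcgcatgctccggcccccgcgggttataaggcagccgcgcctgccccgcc
Slc5a8, chr10:88885742-88885991, plus strand: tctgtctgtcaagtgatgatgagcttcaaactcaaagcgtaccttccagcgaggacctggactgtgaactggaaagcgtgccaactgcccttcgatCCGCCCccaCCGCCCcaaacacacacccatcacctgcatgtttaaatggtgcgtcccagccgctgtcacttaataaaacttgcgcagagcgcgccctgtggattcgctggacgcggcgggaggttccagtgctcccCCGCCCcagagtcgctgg

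The variant GGGTCA was found in the windows of Bdh1 (positions -102 to -97 from the RefSeq start), Oxct1 (-145 to -140, other strand) and Slc16a1 (-204 to -199), whereas 11.6% of all 32851 windows of this length hold it on either strand. In Slc16a1 it overlapped an E-box at -200 to -195, a motif in 6.02% of windows, and a GC box followed at -85 to -80. The Slc5a8 window held 3 GC boxes (GGGCGG) on the other strand, and 32.7% of all windows hold at least 1. The second Bdh1 window held no match to any of these motifs, and that of Bdh2 held 1 CCAAT on the other strand, a motif in 33.8% of windows. AGGTCA and TATAAA, in 14.0% and 12.4% of windows, were not matched in the windows of these genes. GC content was 76.4% for Slc16a1, 58.8% for Slc5a8, 52% for Oxct1 and 49.6% for the Bdh1 window printed, against a median of 52.4% over all windows. These matches are letters in a window and not measured binding.

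The first comparison asked how the diabetic db/db tubule differs from that of db/m controls. Of the 7 genes, 1 was called, Bdh1, where a call needed a log2 fold change beyond 1 in either direction at an adjusted p under 0.1. Among all genes tested 1.24% were called, 0.699% lower and 0.545% higher. At any fold, 2 of the 7 had an adjusted p under 0.1, Bdh1 and Oxct1, beside 1.67% of all genes and 0.879% of all genes in that direction. At an unadjusted p under 0.05 there were 4 of the 7, beside 13.7% of all genes. Levels of 3 of the 7, Bdh1, Acat1 and Oxct1, did not overlap between the groups and all were lower in db/db mice, whereas 16.4% of all genes did not overlap, 8.13% lower and 8.28% higher. The genes that did not overlap were the mitochondrial enzymes of the list, and no transporter separated these groups.

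Oxct1 (chromosome 15, 4026383 to 4155344 on GRCm38, plus strand, protein-coding) was at 1446, 1556 and 1248 CPM in db/m mice, at 1024, 738 and 721 CPM in db/db mice and at 866, 886 and 827 CPM in db/db-dapa mice. Every db/db and db/db-dapa mouse was below every db/m mouse, and the diabetic groups overlapped each other. For db/db against db/m mice, Oxct1 had a log2 difference of -0.78 (standard error 0.19, 1.71-fold lower), with adjusted p = 0.0982 from edgeR's quasi-likelihood test, so that Oxct1 passed the threshold on p but not that on fold. Without any 1 mouse the adjusted p from edgeR rose to between 0.114 and 0.284, except without db/db replicate 1, where it was 0.0444. It was also over the threshold with upper quartile scaling (0.121), total counts only (0.152), both limma fits on log2 values (0.116 and 0.107), only the 2 groups fitted (0.259), the replicate block (0.128) and the newer form of edgeR's test (0.109). Treated against db/m mice differed by -0.72 on the log2 scale (standard error 0.19), with adjusted p = 0.119 from edgeR. Counts of Oxct1 were not whole in 3 mice, so that it is uncertain whether reads were split with another gene, and its copies Oxct2a and Oxct2b were at most at 1.77 and 0.800 CPM in a mouse. Oxct2a was at 0.157, 0 and 0 CPM in db/m mice and at 0.680, 0.400 and 1.77 CPM in db/db mice, without overlap but near the level of 3 counts. An opposite-strand gene in its locus, BC037032, had at most 118 counts, against at least 3014 for Oxct1.

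Acat1 (chromosome 9, 53580522 to 53610382, minus strand) was at 815, 784 and 760 CPM in db/m mice, at 458, 524 and 588 CPM in db/db mice and at 557, 641 and 717 CPM in db/db-dapa mice. Treated mice were intermediate by their mean, below every db/m mouse and overlapping the untreated db/db mice. Its log2 fold change was -0.59 (standard error 0.17, adjusted p = 0.167, edgeR) in db/db and -0.30 (standard error 0.17, adjusted p = 0.351, edgeR) in db/db-dapa mice, each against db/m, and neither passed the test.

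Bdh1 (chromosome 16, 31422280 to 31458901, plus strand) fell from 123, 83.2 and 100.1 CPM in db/m mice to 14.6, 18.01 and 32.1 CPM in db/db mice. It was at 17.2, 14.8 and 30.2 CPM in db/db-dapa mice. The lowest db/m mouse was above the highest diabetic mouse, treated or not, and the diabetic groups covered nearly the same range. The log2 fold change was -2.21 (standard error 0.33, 4.63-fold lower) in db/db against db/m mice, with adjusted p = 0.0132 from edgeR's quasi-likelihood test, the rank 36 among all genes by p. It was -2.29 (standard error 0.33, 4.90-fold lower) in db/db-dapa against db/m mice, with adjusted p = 0.0143 (edgeR) and rank 22. Both comparisons share the db/m mice. The call in db/db-dapa mice was lost without db/db-dapa replicate 2, at -2.10 and adjusted p = 0.106 (edgeR), whereas that in db/db mice was kept in all 22 alternatives. Bdh1 was read from between 43 and 780 counts per mouse, and its exons overlap Gm15743 on the opposite strand, which was not analysed here.

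S3 markers moved with Bdh1, since their sum was also highest in the 3 db/m mice. Within both diabetic groups the mice had the same order on Bdh1 as on the S3 sum, with replicate 3 highest on each. Within db/m mice the orders differed, with Bdh1 highest in replicate 1 and the S3 sum highest in replicate 2. Between the diabetic groups, however, Bdh1 did not follow the S3 sum. The S3 sum was 779 and 710 CPM in db/db-dapa replicates 1 and 2 and 202 and 223 CPM in db/db replicates 1 and 2. The former were more than 3 times the latter, whereas Bdh1 was at 17.2 and 14.8 against 14.6 and 18.01 CPM. Atp11a alone gave 443 and 519 CPM of the treated sums, and Slc7a13, Slc22a30 and Slco1a1 were also higher in these treated mice. The other S3 markers were not. Slc22a7 was at 42.9 CPM or more in db/m mice and at 0.525 CPM or less in every diabetic mouse. Cyp7b1, near the level of 3 counts, was lower in these treated mice than in these db/db mice. The S1 and S2 markers summed to between 5718 and 6609 CPM in db/m, between 7298 and 9821 CPM in db/db and between 8009 and 8435 CPM in db/db-dapa mice. The part of segment composition in the level of Bdh1 was not tested. In sorted pools such as these, fewer cells of a type and less RNA per cell cannot be told apart.

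**Figure D1:**
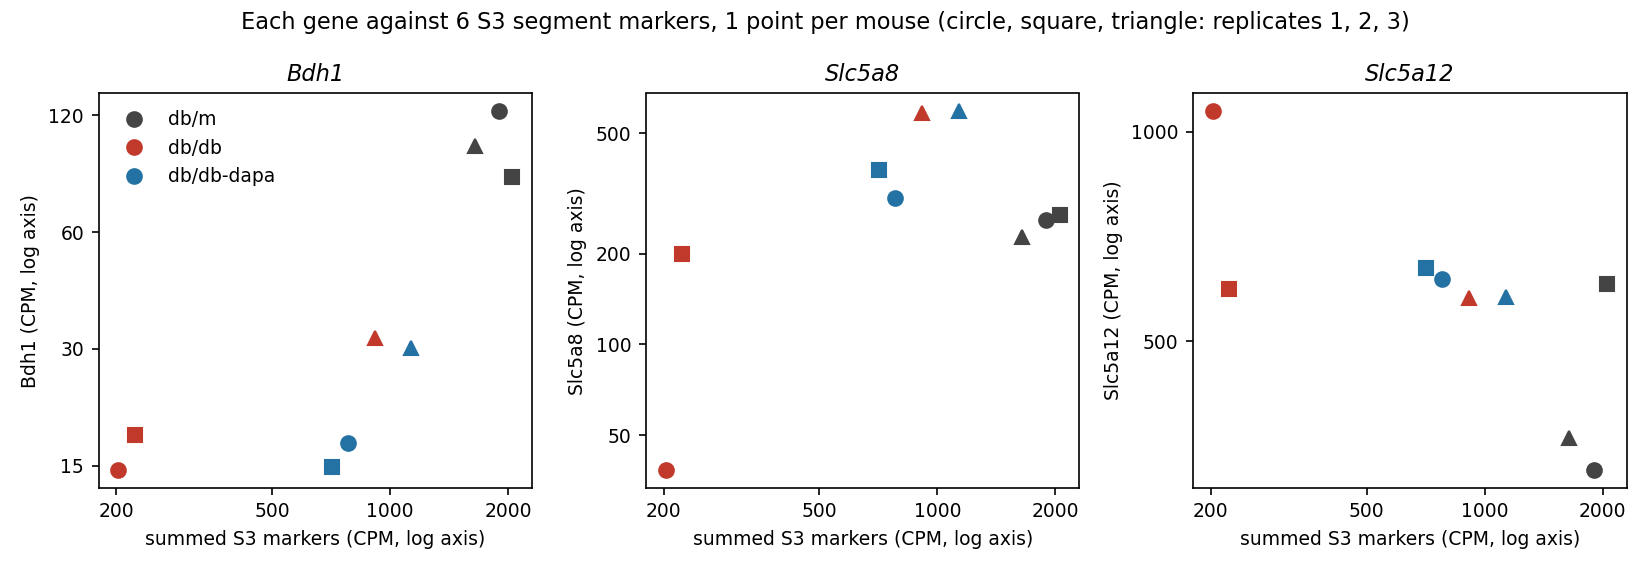
Levels of Bdh1, Slc5a8 and Slc5a12 (CPM, vertical, log axis) against the summed level of 6 S3 segment markers (CPM, horizontal, log axis), 1 point per mouse, colored by group and shaped by replicate number. The db/m mice stand apart at 83.2 CPM or more for Bdh1 and 1644 CPM or more for S3 markers, and db/db replicate 1 has the lowest Slc5a8 and the highest Slc5a12.

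Bdh2 (chromosome 3, 135281221 to 135304426, plus strand), the cytosolic relative, did not share this pattern. It was at 349, 302 and 433 CPM in db/m mice, at 329, 495 and 324 CPM in db/db mice and at 347, 331 and 333 CPM in db/db-dapa mice, and all groups overlapped. The 95% interval of its log2 fold change, from edgeR, was -0.37 to 0.54 in db/db against db/m mice and -0.56 to 0.35 in db/db-dapa against db/m mice, which leaves out a 2-fold change in either direction. The ratio of Bdh1 to Bdh2, taken within each mouse and so free of library scaling, was 0.352, 0.275 and 0.231 in db/m mice, 0.0445, 0.0364 and 0.0989 in db/db mice and 0.0495, 0.0448 and 0.0907 in db/db-dapa mice. The log2 ratio was lower by a mean difference of -2.38 in db/db and of -2.27 in db/db-dapa mice against db/m (exact two-sided permutation tests, p = 0.1 for each, the smallest p that 3 against 3 mice allow, 0.225 after Benjamini-Hochberg adjustment over 9 ratio comparisons).

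The ratio of Oxct1 to Bdh1 set the committed step of ketone body use against the interconversion of the ketone bodies. Counts of Oxct1 were 11.8, 18.7 and 12.5 times those of Bdh1 in db/m mice, 70.1, 41.0 and 22.5 times in db/db mice and 50.4, 59.7 and 27.4 times in db/db-dapa mice. Every diabetic mouse was above every db/m mouse, and the log2 ratio differed by 1.52 and 1.64 in untreated and treated db/db mice relative to db/m (exact two-sided permutation tests, p = 0.1 for each, adjusted 0.225). Although both genes were lower in diabetic mice, Bdh1 was the lower of the pair relative to db/m in every mouse.

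Slc5a8 (chromosome 10, 88885992 to 88929515, plus strand), the high-affinity apical carrier, was at 259, 269 and 228 CPM in db/m mice, at 38.4, 199 and 583 CPM in db/db mice and at 306, 380 and 591 CPM in db/db-dapa mice. The db/m mice lay close together and all treated mice were above them, whereas the db/db mice spread over 15.2-fold, from below every other mouse to just under the highest treated mouse. No comparison passed the test. The log2 fold change of db/db against db/m mice was 0.12 (standard error 0.64, 95% interval -1.28 to 1.53, edgeR) and turned to -1.07 without db/db replicate 3. Between treated and untreated db/db mice it was 0.63 (standard error 0.64), and leaving out db/db replicate 1 gave 0.12 and leaving out db/db replicate 3 gave 1.84. Against db/m mice the treated mice differed by 0.76 (standard error 0.64, adjusted p = 0.526, edgeR). The order of the db/db mice was the same for Slc5a8 as for the S3 markers, 202, 223 and 912 CPM. In db/db-dapa mice the orders differed, with S3 sums of 779, 710 and 1133 CPM. The db/m mice had the highest S3 sums, at 1644 CPM or more, and lower Slc5a8 than every treated mouse. Slc22a6, the organic anion transporter OAT1, was at 384, 986 and 1882 CPM in db/db mice. It belongs to the proximal tubule markers and not to the S3 list. It is named because its likeness to Slc5a8 over these same mice, given below, was among the highest. The part of segment composition in the spread of Slc5a8 was not tested. Slc5a8 had counts that were not whole in 4 mice.

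Slc5a12 (chromosome 2, 110597298 to 110647779, plus strand), the low-affinity apical carrier, was at 326, 605 and 363 CPM in db/m mice, at 1070, 595 and 577 CPM in db/db mice and at 613, 636 and 579 CPM in db/db-dapa mice. Groups overlapped through db/m replicate 2, and db/db replicate 1, the mouse with the lowest Slc5a8, had the highest value. The log2 fold change was 0.79 (standard error 0.28, adjusted p = 0.249, edgeR) in db/db and 0.50 (standard error 0.28, adjusted p = 0.353, edgeR) in db/db-dapa mice against db/m. Counts were not whole in 2 mice. The sum of S1 and S2 markers was also highest in db/db replicate 1, at 9821 CPM against 7298 and 7937 CPM in the other db/db mice. It was higher in every diabetic mouse than in every db/m mouse. The order of the mice on Slc5a12 and on this sum differed in each group. The part of segment composition in the level of Slc5a12 was not tested. The ratio of Slc5a8 to Slc5a12 within a mouse was 0.794, 0.445 and 0.627 in db/m mice, 0.0359, 0.335 and 1.01 in db/db mice and 0.499, 0.597 and 1.02 in db/db-dapa mice. The db/db mice ran from below every other mouse to just under the highest treated mouse. The log2 ratio differed by -1.40 in db/db against db/m mice, by 1.55 between treated and untreated db/db mice and by 0.15 in treated against db/m mice (exact two-sided permutation tests, p = 0.5, 0.4 and 0.7). Without db/db replicate 1 the first of these differences was -0.058 and the second 0.21, and without db/db replicate 3 they were -2.46 and 2.62.

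Slc16a1 (chromosome 3, 104638668 to 104658462, plus strand), the proton-coupled carrier MCT1, was at 52.1, 71.9 and 35.3 CPM in db/m mice, at 43.2, 74.2 and 80.8 CPM in db/db mice and at 97.4, 135 and 119.8 CPM in db/db-dapa mice. All treated mice were above all untreated mice of either genotype, which overlapped each other. Of all genes, 4.9% were higher without overlap in treated than in untreated db/db mice and 14.4% in treated than in db/m mice. The share of genes with both was not computed. Between treated and untreated db/db mice its log2 fold change was 0.82 (standard error 0.28, 1.76-fold higher, 95% interval 0.20 to 1.44), with adjusted p = 0.854 from edgeR. Against db/m mice it was 1.14 (standard error 0.29, 2.204-fold higher), with adjusted p = 0.112 from edgeR. That last value lay near the threshold, and Slc16a1 was called against db/m mice in 6 of 22 alternatives, among them DESeq2 (adjusted p = 0.0128) and fits without db/db replicate 1 (0.0693) or db/db replicate 3 (0.0395).

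**Figure D2:**
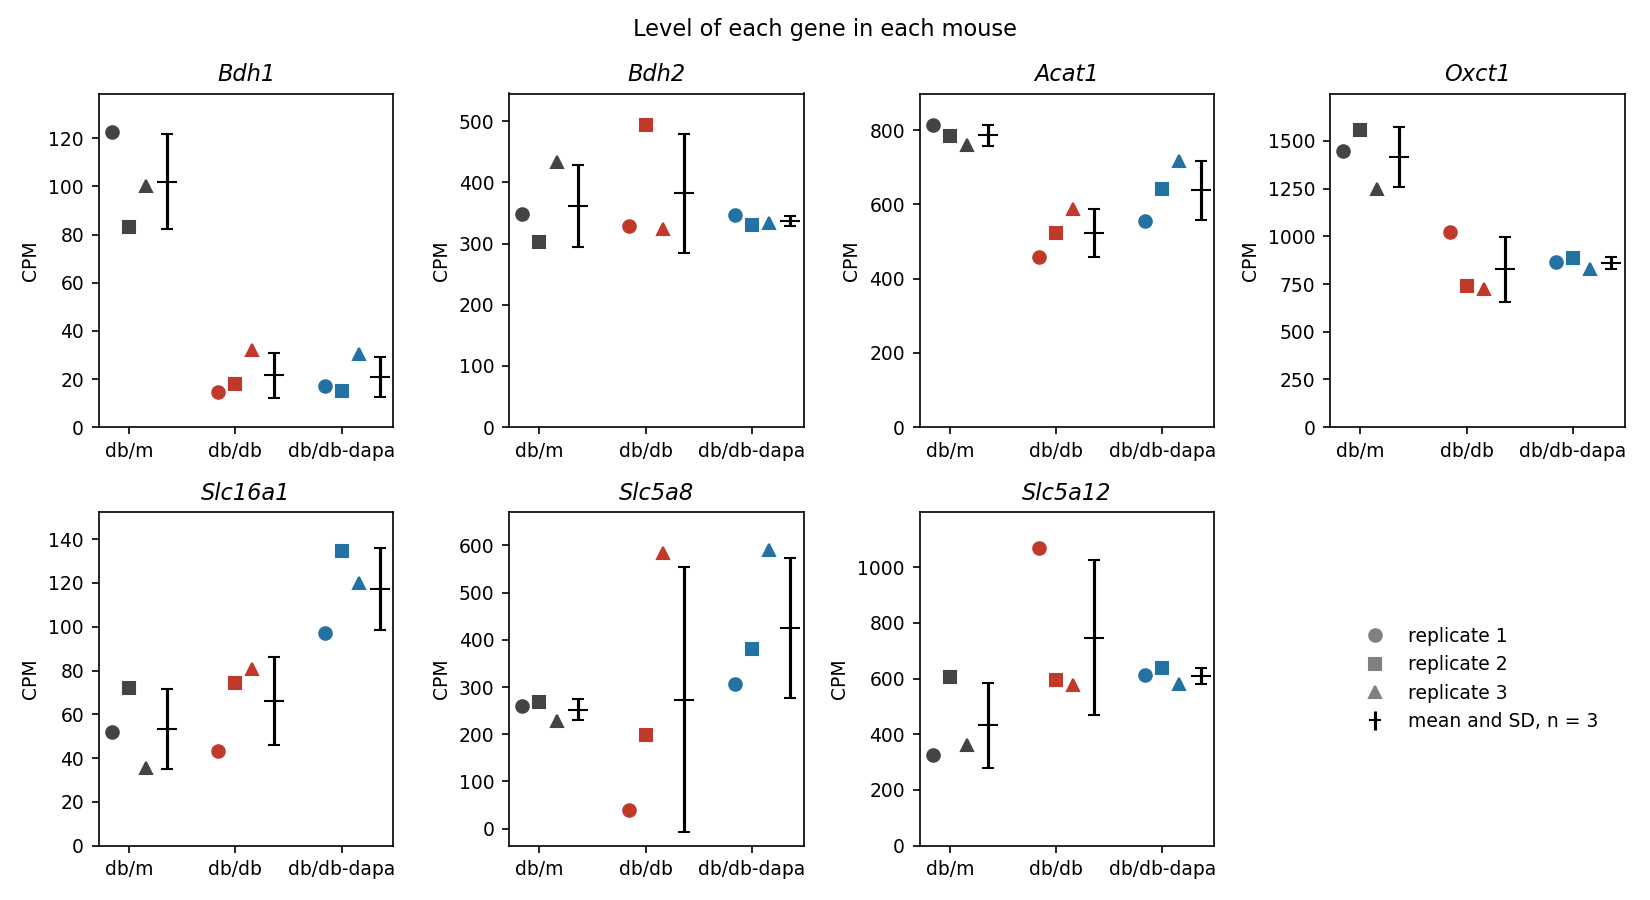
Level of each of the 7 genes (CPM, vertical) in each mouse of the 3 groups (horizontal), with the mean and SD of the 3 mice of a group beside the points. Bdh1 is at 83.2 CPM or more in db/m mice and at 32.1 CPM or less in diabetic mice, Slc16a1 is at 97.4 CPM or more in treated mice, and Slc5a8 ranges from 38.4 to 583 CPM in db/db mice.

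The second comparison asked what dapagliflozin changed in db/db mice. None of the 7 genes was called by edgeR between treated and untreated db/db mice, and 0% of all genes tested were called, although 272 genes were called without db/db replicate 3. At an unadjusted p under 0.05 there was 1 of the 7, Slc16a1, beside 5.19% of all genes. It was also the 1 gene of the 7 whose groups did not overlap, beside 10.2% of all genes, 4.9% higher and 5.29% lower. DESeq2 called none of the 7, and limma's voom with mice weighted called 2, Slc16a1 (log2 fold change 1.05, adjusted p = 0.0854) and Slc5a8 (1.85, adjusted p = 0.0921). For Bdh1 the log2 fold change was -0.08, with a 95% interval of -0.80 to 0.64, and for Oxct1 it was 0.06, with an interval of -0.35 to 0.46. The interval for Oxct1 leaves out a 2-fold change in either direction, and that for Bdh1 does so too. For Acat1 the value was 0.29 (95% interval -0.09 to 0.66), for Bdh2 -0.18 (-0.64 to 0.27) and for Slc5a12 -0.29 (-0.91 to 0.33), all from edgeR.

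The third comparison set treated diabetic mice against db/m controls. Again 1 of the 7 genes was called, Bdh1, beside 1.05% of all genes, 0.475% lower and 0.578% higher. It was also the 1 of the 7 with an adjusted p under 0.1 at any fold, beside 1.31% of all genes and 0.558% in that direction. At an unadjusted p under 0.05 there were 3 of the 7, beside 18.2% of all genes. Levels of 5 of the 7 did not overlap, beside 28.1% of all genes, 14.4% higher and 13.7% lower. These were Bdh1, Acat1 and Oxct1, lower in treated mice, and Slc16a1 and Slc5a8, higher in treated mice. This comparison and the first share the db/m mice, and it shares treated mice with the second. The median log2 fold change over all genes was 0.02, -0.01 and -0.02 in the first, the second and the third comparison. Scaling by total counts moved the median of the first to 0.13, where Bdh1, Acat1 and Oxct1 kept their direction.

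**Figure D3:**
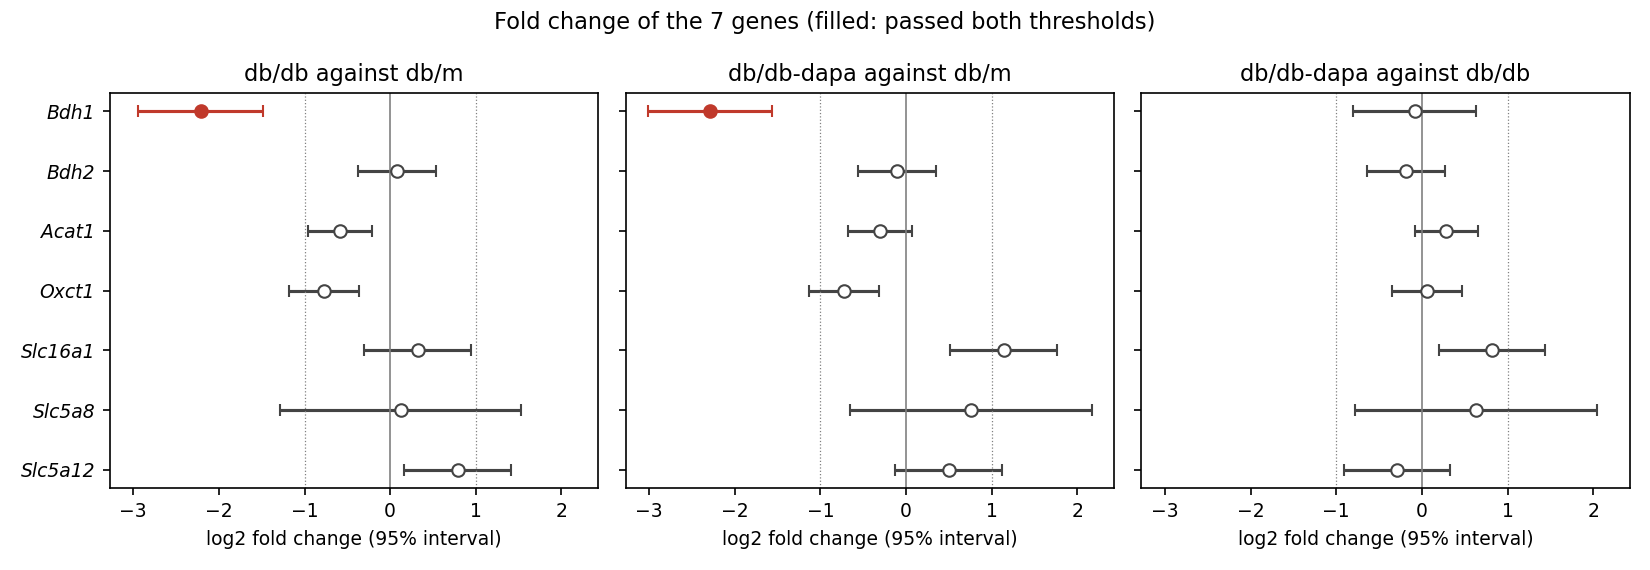
log2 fold change (horizontal) of each of the 7 genes in the 3 comparisons, with 95% intervals from edgeR, filled where a gene passed both thresholds. Bdh1 is filled at -2.21 and -2.29 against db/m mice and lies at -0.08 between treated and untreated db/db mice.

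Per kilobase of exon, Oxct1 had the highest mean of the 7 genes in every group, at 383 ± 42.2, 224 ± 46.0 and 232 ± 8.12 CPM per kilobase (mean ± SD, n = 3 each) in db/m, then db/db, then db/db-dapa mice. In db/m mice it was followed by Acat1 at 209 ± 7.31, Slc5a12 at 106 ± 37.3, Bdh2 at 85.1 ± 15.6, Slc5a8 at 47.3 ± 4.08, Bdh1 at 26.3 ± 5.11 and Slc16a1 at 12.0 ± 4.14 (SD, n = 3 each). Only Slc5a12 and Bdh2 overlapped among neighbours in that order. In both diabetic groups Bdh1 was last, below Slc16a1, at 5.55 ± 2.38 CPM per kilobase without and 5.33 ± 2.13 with dapagliflozin (SD, n = 3 each). In db/db mice the neighbours Oxct1 and Slc5a12, Slc5a12 and Acat1, Bdh2 and Slc5a8, and Slc5a8 and Slc16a1 overlapped. In db/db-dapa mice Acat1 and Slc5a12, and Slc5a8 and Bdh2, did so. By mean CPM over the 9 mice, Oxct1 exceeded 99.4% of all genes tested, Acat1 98.9%, Slc5a12 98.7%, Bdh2 97.2%, Slc5a8 96.7%, Slc16a1 83.5% and Bdh1 73.7%.

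**Figure D4:**
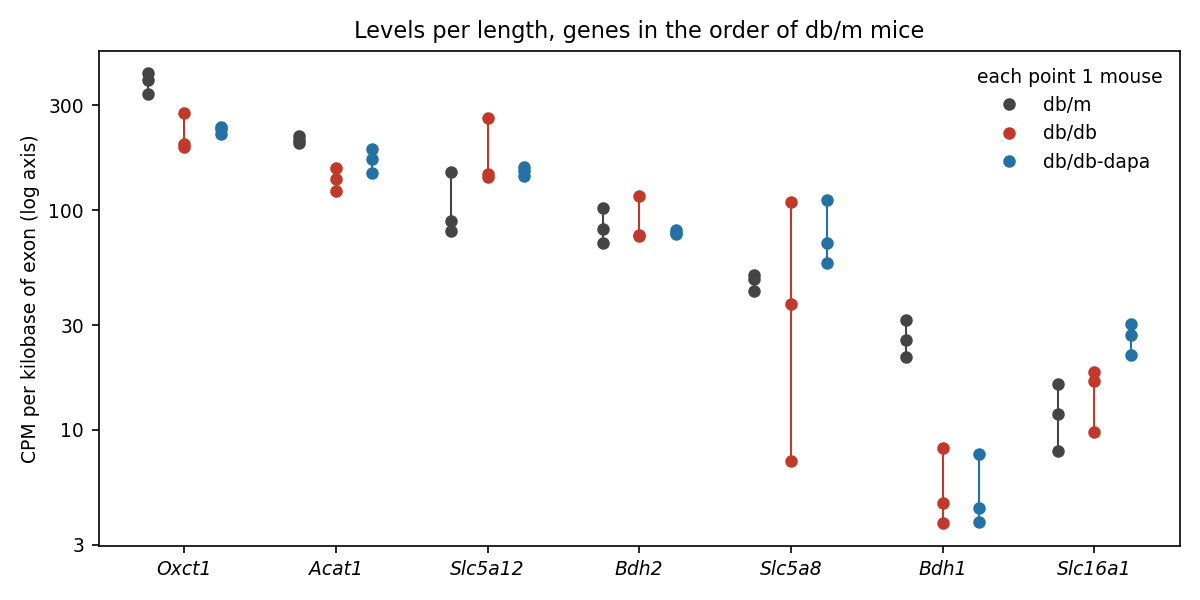
Level per length (CPM per kilobase of exon, vertical, log axis) of the 7 genes, ordered by their mean in db/m mice, with 1 point per mouse and a line over the range of each group. Bdh1 changes place with Slc16a1 between db/m mice (26.3 against 12.0) and both diabetic groups.

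For each gene, the genes most like it were taken as those with the highest Pearson's r of log2(CPM + 1) over the 9 mice, among 9135 genes with a mean of at least 10 CPM. These values describe the 9 mice, which differ by group, and carry no test. Bdh1 was followed most closely by Gm11128 (r = 0.979), Lpl (0.978) and Degs2 (0.971). Lipoprotein lipase, the product of Lpl, releases fatty acids from triglycerides, and Lpl was at 317 to 393 CPM in db/m mice, 81.9 to 168 in db/db and 94.0 to 147 in db/db-dapa mice. For Oxct1 they were Rrad (0.970), Ahsa2 (0.956) and the selenium carrier Sepp1 (0.952). For Acat1 they were Acsm3 (0.976), a medium-chain acyl-CoA synthetase, Lrrc28 (0.976) and Coasy (0.963), which makes coenzyme A. For Bdh2 they were Gstk1 (0.949), 1700037H04Rik (0.941) and Ccs (0.930). For the transporters, Slc5a8 was followed by Spast (0.993), Def8 (0.989) and Slc22a6 (0.984), Slc16a1 by Dennd5a (0.969), Hadha (0.966), a subunit of the enzyme complex of fatty acid oxidation, and Acmsd (0.964), and Slc5a12 by Acss1 (0.912), which makes acetyl-CoA from acetate, Pcif1 (0.903) and Myrf (0.899). Among the 7 genes themselves, r was 0.85 between Bdh1 and Acat1, 0.78 between Bdh1 and Oxct1 and 0.65 between Acat1 and Oxct1 over the 9 mice, and it was -0.79 between Bdh1 and Slc5a12. The db/m mice stood apart from the rest on Bdh1, and no value within a group was computed.

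Related genes were taken from 6 lists of 72 genes in all, of which 67 were tested. The lists overlap: Cpt1a, Ehhadh and Slc25a20 are listed under both fatty acid oxidation and PPAR-alpha targets. Acaa1b is listed under both ketone enzymes and PPAR-alpha targets. In db/db against db/m mice 2 of the 67 were called, Aacs and Ldhd, none was called between treated and untreated db/db mice by edgeR, and 1 was called in db/db-dapa against db/m mice, Cyp4a14. These shares stand beside the 1.24%, 0% and 1.05% of all genes given above. At an unadjusted p under 0.05 between treated and untreated db/db mice, 0 of 8 other ketone enzymes and 0 of 18 other transporters passed, with 1 of 6 lactate dehydrogenases and receptors, 2 of 16 genes of fatty acid oxidation, 1 of 8 regulators and 0 of 15 targets of PPAR-alpha.

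Of the 8 other enzymes of ketone bodies and acetoacetyl-CoA, all 8 were tested and 1 was called. Aacs, which activates acetoacetate in the cytosol for lipid synthesis, fell in db/db mice, from 211, 181 and 251 CPM in db/m mice to 40.4, 86.0 and 118 CPM, and was at 149, 136 and 101 CPM in db/db-dapa mice. All db/db mice were below all db/m mice, by -1.38 on the log2 scale (standard error 0.32, adjusted p = 0.0856, edgeR). The call was kept in 14 of 22 alternatives and lost without db/m replicates 1, 2 or 3, db/db replicate 2, or db/db-dapa replicates 2 or 3, where adjusted p from edgeR was 0.113 to 0.252. It was also lost with the replicate block (0.116) and with only the 2 groups fitted (0.157). The cytosolic thiolase Acat2 was at 144 ± 16.3, 142 ± 12.8 and 157 ± 21.5 CPM (SD, n = 3 each) in db/m, then db/db, then db/db-dapa mice. Over this list the median log2 fold change was -0.01, 0.07 and 0.14 in the 3 comparisons in the order given above, beside medians of all genes of 0.02, -0.01 and -0.02. Its extremes, besides Aacs, were set by Oxct2b, which was at 0 in db/m mice and at most 0.800 CPM elsewhere, near the level of 3 counts. Over the 6 genes with a mean of 3 CPM or more in some group the medians were -0.20, 0.15 and 0.0031.

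Of 19 other monocarboxylate transporters and their chaperones, 18 were tested and none was called by edgeR in any comparison, although 1, 0 and 5 had an unadjusted p under 0.05 in the 3 comparisons. The median log2 fold change was 0.01, -0.11 and 0.01. Without db/db replicate 3 the first of these medians was -0.15 and the second 0.049, and without db/db replicate 2 the second was 0.039. Slc16a6, a carrier known for ketone body export from liver, was at 9.13, 6.63 and 3.11 CPM in db/m mice, at 4.76, 18.01 and 27.9 CPM in db/db mice and at 14.9, 25.5 and 26.9 CPM in db/db-dapa mice. All treated mice were above all db/m mice, but the log2 fold change of 1.81 (standard error 0.52) had an adjusted p of 0.153 from edgeR. Basigin (Bsg), which MCT1 needs to reach the membrane, was at a mean of 597, 480 and 414 CPM in db/m, then db/db, then db/db-dapa mice, with adjusted p = 0.263 (edgeR) for treated against db/m mice. The other extremes of this list were Slc16a5 at a mean of 12.1, 9.28 and 5.48 CPM, Emb at 11.8, 9.001 and 7.24 CPM, Slc16a4 at 50.4, 49.8 and 76.1 CPM and Slc16a3 at 1.26, 2.89 and 1.06 CPM in db/m, then db/db, then db/db-dapa mice, and none passed the test.

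Of 8 lactate dehydrogenases and receptors for ketone bodies and short acids, 6 were tested and 1 was called. Ldhd, the mitochondrial D-lactate dehydrogenase, fell from 872, 892 and 806 CPM in db/m mice to 255, 253 and 512 CPM in db/db mice, and was at 472, 467 and 641 CPM in db/db-dapa mice. No db/db mouse reached a db/m mouse, and the log2 fold change was -1.33 (standard error 0.27, adjusted p = 0.0494, edgeR). This call was lost without any 1 of the db/m mice or without db/db replicate 1 or 2, where adjusted p from edgeR was 0.118 to 0.184, and with only the 2 groups fitted (0.114). Between treated and untreated db/db mice Ldhd differed by 0.63 on the log2 scale, with adjusted p = 0.854 (edgeR), and it was called without db/db replicate 3. The S3 marker sums given above were likewise highest in db/m mice and, among db/db mice, in replicate 3, and their part in the level of Ldhd was not tested. The major lactate dehydrogenase of these cells, Ldhb, was at 1864 ± 223, 1624 ± 271 and 1462 ± 75.6 CPM (SD, n = 3 each) and did not pass the test. Hcar2, a receptor of 3-hydroxybutyrate, was at a mean of 3.46, 2.67 and 1.43 CPM in the same order, and Hcar1 was at or near 0 in all mice. Ffar3, a receptor of short-chain fatty acids, was at 0.788 CPM or less in every mouse. On the log2 scale the list had medians of -0.89, 0.46 and -0.25, which became -0.43, 0.072 and -0.53 over the 4 genes with a mean of 3 CPM or more in some group.

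Fatty acid oxidation, which supplies the acetyl-CoA for ketone bodies, was represented by 16 genes, and none was called by edgeR. Their median log2 fold change was -0.01 in db/db against db/m, 0.17 in db/db-dapa against db/db and 0.18 in db/db-dapa against db/m mice. In treated against untreated db/db mice 14 of 16 had a log2 fold change above 0, beside 48.7% of all genes, and 10 of 16 did so without db/db replicate 1, where the median was 0.052. Ehhadh, a peroxisomal enzyme, was at 135, 409 and 637 CPM in db/db and at 451, 678 and 829 CPM in db/db-dapa mice. The extremes were Cpt1a (0.25) and Acads (-0.51) in the first, Ehhadh (0.73) and Cpt1b (-1.13) in the second and Ehhadh (0.77) and Cpt1b (-0.89) in the third comparison, on the log2 scale. Of 10 regulators of ketone body synthesis 8 were tested and none was called, with medians of 0.37, -0.09 and 0.40. Over the 7 with a mean of 3 CPM or more in some group the medians were 0.29, -0.056 and 0.47. Without db/db replicate 3 the medians over all 8 were 0.17 in the first and 0.064 in the second comparison. Crebbp, a coactivator, was at 20.2, 20.4 and 8.66 CPM in db/m mice, 30.2, 33.4 and 51.4 CPM in db/db mice and 21.4, 48.4 and 41.6 CPM in db/db-dapa mice, which gave 1.17 on the log2 scale (standard error 0.37, adjusted p = 0.176, edgeR) in the third comparison. The lowest and highest others were Sirt3 at -0.16 on the log2 scale in the first and Rxra at 0.41 in the second comparison, and Creb3l3 was at 1.39 CPM or less in every mouse.

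Of 15 targets of PPAR-alpha, the receptor that induces ketone body synthesis in fasting liver, all were tested and 1 was called. Cyp4a14, a fatty acid hydroxylase, was at 63.2, 67.0 and 131 CPM in db/m mice, at 70.0, 633 and 1411 CPM in db/db mice and at 711, 816 and 1198 CPM in db/db-dapa mice. It rose in treated against db/m mice by 3.39 on the log2 scale (10.5-fold, adjusted p = 0.0924, edgeR), and every treated mouse was above every db/m mouse. In db/db against db/m mice it was 3.02 on the log2 scale with an adjusted p of 0.108 (edgeR), and db/db replicate 1 was at the level of db/m mice. The call was lost without any 1 of the db/m mice, without db/db replicate 2 or without db/db-dapa replicates 2 or 3, where adjusted p from edgeR was 0.118 to 0.336, and in both limma fits on log2 values (0.114 and 0.111). The median of the list was 0.25, 0.32 and 0.71 on the log2 scale. In treated against untreated db/db mice 13 of 15 had a log2 fold change above 0, beside 48.7% of all genes, and 8 of 15 did so without db/db replicate 1, where the median was 0.0096. Since Cpt1a, Ehhadh and Slc25a20 are in this list and in that of fatty acid oxidation, the counts of these lists are not independent. Pdk4, which restrains pyruvate oxidation, was at 26.2, 246 and 47.1 CPM in db/db and at 57.1, 85.1 and 53.5 CPM in db/db-dapa mice, and its log2 fold change of -0.71 turned to 0.81 without db/db replicate 2. The other extremes of the list were Slc27a2 (-0.72) in the first and Slc27a2 (-0.39) in the third comparison, and Fabp1 was at 2.41 CPM or less in every mouse. None of these passed the test.

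**Figure D5:**
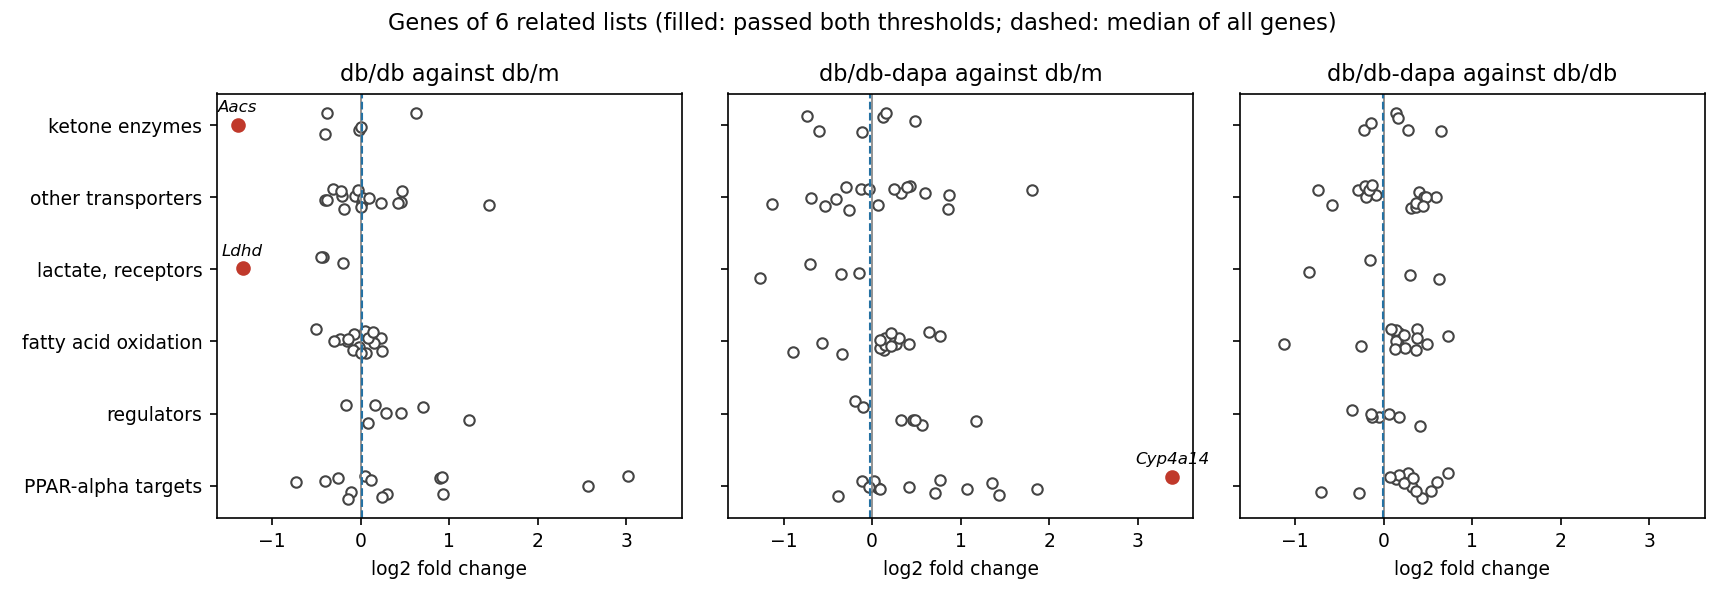
log2 fold change (horizontal) of the genes of 6 related lists (vertical) in the 3 comparisons, 1 point per gene, filled and named where a gene passed both thresholds, with a dashed line at the median of all genes. The 60 genes with a mean of at least 3 CPM in some group are drawn and the other 7 tested genes are not. Aacs (-1.38) and Ldhd (-1.33) are filled in db/db against db/m mice, and Cyp4a14 (3.39) in db/db-dapa against db/m mice.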

How the data were processed

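RNA of sorted tdTomato-positive cells was read as single-end reads from stranded libraries. Per the submitters' notes and the study's methods, the authors used TopHat2 2.0.13, Bowtie2 2.2.3 and SAMtools 0.1.19 (mm10) and Cufflinks 2.2.1. The deposited table carries FPKM in its name and holds estimated counts (90.9% of values whole). The step by which the authors obtained them, and its use of strand, are not given in the sources used here. There were 0 unused columns and 0 rows without a gene name.

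Counts were rounded to whole numbers, scaled by TMM and fitted over all 9 mice without pairing by the quasi-likelihood test of edgeR 4.0.16 (earlier form) in R 4.3.3. Genes at 0.3 CPM or more in at least 2 mice were tested, with Benjamini-Hochberg adjustment over 15583 genes. Calls needed a log2 fold change beyond 1 in either direction at an adjusted p under 0.1. P-values measure the spread between mice. Ratios were compared by exact two-sided permutation tests. Floors of 3 counts cover counting error only. The common biological coefficient of variation was 0.259.

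The 7 genes, the lists and the tests were chosen with earlier results of these data known. Named beside them were list genes called in a comparison, the highest and lowest of each list and the 3 genes most like each of the 7, and Acat2, Ldhb, Bsg and S3 markers were named after their values were seen. Some other enzymes of ketone body synthesis are not reported here. Positions and exon lengths are from GENCODE's annotation of GRCm38, and promoters from RefSeq for GRCm38.p6. Same-numbered mice deviated together with r from -0.32 to 0.56, over 0.1 in 3 of 9 pairs, so numbers were not taken to pair mice. Between db/db and db/db-dapa mice r was 0.40, -0.16 and 0.56 for replicates 1, 2 and 3. It ranged from -0.61 to 0.36 for mice of these groups with different numbers. In simulated data for the comparison of treated with untreated db/db mice, over 15583 genes, edgeR recovered 179 of 200 genes changed 4-fold and 72 of 200 changed 2-fold. It called 11 unchanged genes in each case. The simulated spread followed the general trend with level and no mouse stood apart, so recovery with the outlying db/db mice was not measured. Alternatives were other scalings, filters and tools (DESeq2 1.42.0, limma 3.58.1), a replicate block, fits of 2 groups, each mouse left out and, added after seeing the data, the newer form of edgeR's test and list medians without a mouse or without genes under 3 CPM.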

Additional observations from a re-analysis of the deposited data

How the results depend on the processing

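The call of Bdh1 in db/db against db/m mice was kept in all 22 alternatives (log2 fold change -2.64 to -2.01), and in db/db-dapa against db/m mice in 21 of 22. Where a value below moved or turned, the cause was not tested. Of the 7 genes, limma's voom with mice weighted called 2 between treated and untreated db/db mice. In db/db-dapa against db/m mice 2 were called by DESeq2, voom with mice weighted, without a filter and with only the 2 groups fitted, and 0 to 2 with a mouse left out. Of the list genes in db/db against db/m mice, 4 were called with total counts only, 5 by DESeq2, 4 without a filter, 0 with only the 2 groups fitted and 0 to 7 with a mouse left out. Between treated and untreated db/db mice voom called 2, and 0 to 1 were called with a mouse left out. In db/db-dapa against db/m mice DESeq2 called 5, limma on log2(CPM + 1) and on log2(CPM + 0.1) 0 each, voom 10, the fit without a filter 2, the fit of only 2 groups 9, the replicate block 2, and fits with a mouse left out 0 to 9. Replicate numbers were not taken to pair mice. The replicate block left 1 of the 7 genes called, Bdh1, in both comparisons with db/m mice. In db/db against db/m mice the 2 list genes called with it were Ldhd and Pdk4, without Aacs.

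Slc5a8 in db/db against db/m mice turned to -0.60 with limma on log2(CPM + 1), -0.61 on log2(CPM + 0.1), -1.19 with voom and -0.42 with the replicate block, and ranged from -1.07 to 0.63 with a mouse left out. Oxct1 between treated and untreated db/db mice turned to -0.019 with upper quartile scaling and -0.014 with total counts only. With a mouse left out, values of treated against untreated db/db mice that turned ranged as follows on the log2 scale. Oxct1 was at -0.022 to 0.24, Bdh1 at -0.45 to 0.35, Bdh2 at -0.28 to 0.045 and Slc5a12 at -0.43 to 0.055. Bdh2 ranged over -0.15 to 0.22 in db/db and over -0.22 to 0.043 in db/db-dapa mice against db/m. The log2 ratio of Oxct1 to Bdh1 ranged over -0.30 to 0.52 and that of Bdh1 to Bdh2 over -0.20 to 0.54 between treated and untreated db/db mice, and that of Slc5a8 to Slc5a12 over -0.15 to 0.37 in db/db-dapa against db/m mice. For Slc5a8 to Slc5a12 it was -2.46 to -0.058 in db/db against db/m mice and 0.21 to 2.62 between treated and untreated db/db mice. Taken over the longest transcript, Bdh2 was at 115, 122 and 107 CPM per kilobase in the 3 groups, Bdh1 and Acat1 at 32.3 and 231 in db/m mice, and Oxct1 and Slc5a12 at 244 and 173 in db/db-dapa mice. Over all genes edgeR called 194, 0 and 164 and DESeq2 363, 13 and 507 in the 3 comparisons (voom with mice weighted 262, 449 and 1619). With a mouse left out the ranges were 84 to 230, 0 to 272 and 14 to 662, with 272 and 662 without db/db replicate 3 and 14 without db/db-dapa replicate 2. Depth limits Bdh1 most, with 43 counts in db/db replicate 1.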
